A study of Mus musculus with 3 samples.

Results

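The core transcription factors of the pluripotent state, Pou5f1, Sox2, Nanog, Esrrb, Tfcp2l1, Zfp42, Sall4 and Tbx3, were read at single cytosines in bisulfite-converted mRNA of mouse embryonic stem cells. They were chosen by name and not by a measured value, and every row of the deposited tables that maps to them by RefSeq accession was kept. They are 8 of the 13224 named genes, with 10 of the 15021 listed transcripts. The series holds 3 samples of 1 group. All 3 are cells of the J1 background, which carry homozygous null alleles of Tet1, Tet2 and Tet3 (Tet1-/-,Tet2-/-,Tet3-/-), and the labels name neither a treatment nor a clone. Per the labels' protocols, the cells were cultured with LIF on feeder fibroblasts, which were depleted by repeated plating before poly(A) RNA was selected. Wild-type cells were not analysed here, and cytosines, transcripts and genes were compared within these libraries. Nothing in the labels says that the samples were separate cultures, so the spread between them may be technical.

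In stem cells, Pou5f1 (the POU-domain factor also called Oct4) and Sox2 (an HMG-box factor) bind DNA together at composite sites. Nanog, Esrrb, Tfcp2l1, Zfp42, Sall4 and Tbx3 extend this core into a network that is maintained by LIF signalling. Bisulfite converts unmodified cytosine to uracil, which is read as thymine, whereas 5-methylcytosine and 5-hydroxymethylcytosine stay cytosine. Tet enzymes oxidise the first to the second, and bisulfite reads do not separate these marks from each other or from cytosines that failed to convert. The measure at each cytosine is therefore its unconverted share, the percent of reads that kept the cytosine.

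The first 30 nucleotides of 3 of these mRNAs are shown because there the listed cytosines could be tied to letters of RefSeq sequence. Cytosines are in capitals.
Pou5f1: gaggtgaaaCCgtCCCtaggtgagCCgtCt
Sox2: CtattaaCttgttCaaaaaagtatCaggag
Tfcp2l1: aggttCgagtgggtgCtgCttaaaggtgga
These lie on the plus strand of GRCm38.p6, the build of the RefSeq sequences, at chr17:35506032-35506061, chr3:34650005-34650034 and chr1:118627945-118627974. All 19, 6 and 10 cytosines that the sequence holds in the first 50 nucleotides were at the listed positions. For Sox2 this needed a shift of 10 nucleotides from the annotated start of the gene. Of the 8 genes, 6 had an entry in the sequence table, and the other 3 of these gave no unique placing.

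The capitals in the Pou5f1 line were unconverted in 5 of 798 reads over the 3 libraries, a share of 0.627% (exact 95% interval 0.204% to 1.46%). Those of Sox2 were unconverted in 4 of 475 reads, or 0.842% (0.230% to 2.14%), and those of Tfcp2l1 in 2 of 105 reads, or 1.90% (0.232% to 6.71%). Summed over these cytosines, the starts of Pou5f1 and Sox2 were thus almost completely converted. Most of the reads lay at positions 25, 26 and 29 of Pou5f1 and at position 25 of Sox2. The first cytosines had too few reads to say this of each. Position 10 of Pou5f1 had 8, 5 and 5 reads, and position 8 of Sox2 had 15, 10 and 12. At position 14 of Sox2, 2 of 35 reads were unconverted in replicate 3. In Tfcp2l1 both unconverted reads lay at position 19 in replicate 1 (2 of 11), and its interval is too wide to say this even of the sum. Intervals here and below cover counting error only. Copies made by PCR are counted as separate reads, and in a sum over cytosines a read enters as often as it spans cytosines.

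Across the whole series, replicates 1, 2 and 3 listed 3846960, 3658396 and 3653533 cytosines with a summed coverage of 151362866, 142608298 and 139884444 and a median coverage of 11, 10 and 10 reads. The unconverted share over all reads, used as the background of each library, was 1.53%, 1.45% and 1.41%, a mean of 1.46% ± 0.0643 (SD, n = 3). The deleted genes had a mean coverage of 6.67 to 8.58 reads (Tet1, 16 to 19 listed cytosines per library), 10.4 to 11.7 reads (Tet2, 632 to 719) and 6.06 to 6.14 reads (Tet3, 344 to 448). Which exons were deleted is not stated, so these reads do not check the labels. Of 20 feeder fibroblast markers, 16 were listed. They took 0.0932%, 0.0776% and 0.0657% of the coverage in replicates 1 to 3, whereas Dcn, Lum, Pdgfrb and Postn had no listed cytosine. The 8 pluripotency factors took 0.202% ± 0.00575 (SD, n = 3). The part of feeder RNA in the shares given below was not tested.

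Of the 8 factors, 5 could be tested. A cytosine was testable with at least 10 reads in each of the 3 libraries, and 2517 cytosines passed: 1224 in Tfcp2l1, 535 in Sox2, 316 in Sall4, 288 in Zfp42 and 154 in Pou5f1. Nanog, Esrrb and Tbx3 had none. Which stretches were read differed between genes annotated with 1 mRNA accession and those with several. Sox2, Zfp42 and Tfcp2l1 have 1 accession each and were read from near the start of the transcript to near its end. Sox2 had cytosines listed up to position 2417 (counted from 1 at the transcript's start), Zfp42 up to 1666 and Tfcp2l1 up to 9262.

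Pou5f1, Nanog, Esrrb, Sall4 and Tbx3 have 2, 4, 2, 3 and 2 accessions and were each listed in a limited span. Pou5f1 (NM_013633.3) had 162 listed cytosines in every library, between positions 10 and 545. Its second model, NM_001252452.1, had 7, 1 and 2 listed cytosines with 24, 3 and 7 reads summed over them, and none was unconverted. No cytosine of this model had more than 5 reads. Sall4, a spalt-family zinc-finger factor, was listed only between positions 1262 and 2728 of NM_175303.3, with no listed cytosine for its models NM_201395.3 and NM_201396.3. Nanog, a homeodomain factor, was listed only between positions 671 and 777 of NM_001289828.1, and NM_001289830.1, NM_001289831.1 and NM_028016.3 had no listed cytosine. Of all genes in the tables, the 7757 with 1 accession had testable cytosines in 71.8% of cases and a median of 291 listed cytosines. The 5467 with more had them in 62.8% of cases and a median of 101. The rule by which reads fitting several models were assigned is not given in the sources used here, and its part in the low coverage of Nanog, Esrrb and Tbx3 was not tested.

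**Figure D1:**
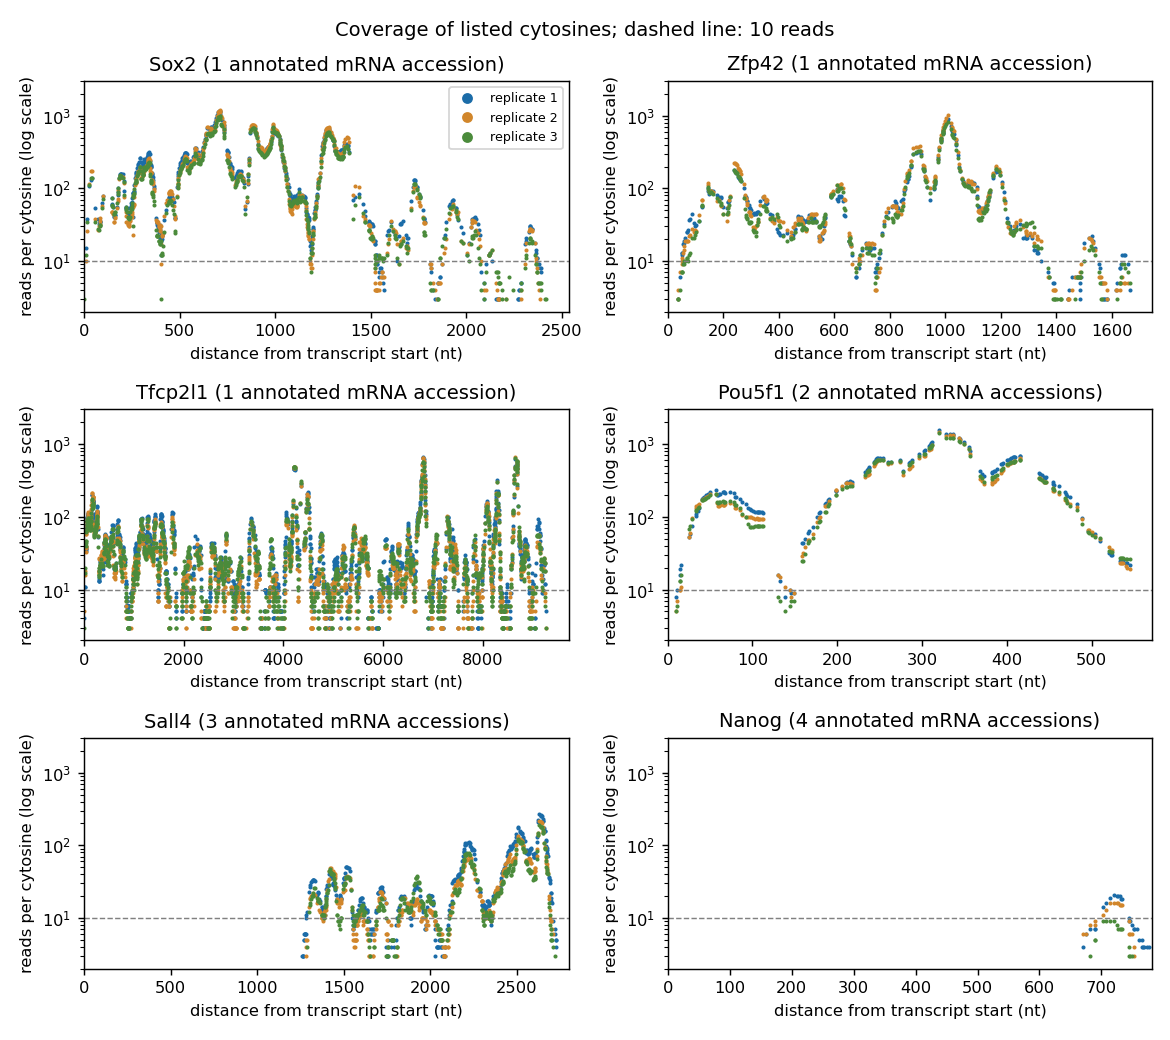
Reads per listed cytosine (log scale) against the distance from the transcript's start in nucleotides, for the main transcript of 6 factors, with 1 colour per replicate and a dashed line at 10 reads. Listed cytosines of Sox2, Zfp42 and Tfcp2l1 run from near the start to near the end with gaps, whereas those of Pou5f1, Sall4 and Nanog, which have several annotated models, are confined to positions 10 to 545, 1262 to 2728 and 671 to 777.

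Coverage followed the same order in each library. The mean coverage per listed cytosine of Pou5f1 was 349, 307 and 308 reads, a mean of 321 ± 23.9 (SD, n = 3 here and below). Sox2 followed with 207, 202 and 179 reads (196 ± 15.0), and Zfp42, the zinc-finger gene also called Rex1 and a marker of naive stem cells, with 90.5, 97.4 and 85.8 reads (91.2 ± 5.84). Tfcp2l1, a factor of the CP2 and grainyhead family, had 42.9, 40.2 and 39.0 reads (40.7 ± 1.99). Sall4 had 38.7, 30.05 and 29.1 reads (32.6 ± 5.29), and Nanog 10.1, 10.2 and 6.13 reads (8.82 ± 2.34). No pair of neighbours in this order overlapped between libraries, although the highest library of Sall4 came close to the lowest of Tfcp2l1. Among all transcripts of a library, Pou5f1 stood at percentile 98.8 to 98.9, Sox2 at 97.9 to 98.2, Zfp42 at 95.1 to 95.6, Tfcp2l1 at 86.9 to 87.6 and Sall4 at 81.9 to 86.0. Coverage per cytosine does not grow with transcript length, but it is a rough measure of abundance, since it averages only the stretches that were listed.

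Coverage was uneven within each mRNA, and the deepest cytosine was the same in every library except in Tfcp2l1. The deepest cytosine of Pou5f1, at position 320, had 1549, 1474 and 1407 reads, whereas the last listed one, at 545, had 22, 19 and 26. In Sox2 the deepest cytosine was at 709, with 1164, 1186 and 993 reads. Zfp42 peaked at position 1010 (903, 1010 and 832 reads), Tfcp2l1 on average at 8650 (633, 663 and 642 reads, below the 667 of replicate 1 at 6807) and Sall4 at 2629 (271, 213 and 191 reads). The precision of a share therefore varied widely along each transcript. A count of 0 at the minimum of 10 reads allows a share of up to 30% (3 counts of the total).

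Nanog, Esrrb and Tbx3 left too few reads for single sites. A read is counted here at each cytosine it spans, so the limits below, which take the counts as independent, are too low. Single cytosines had at most 9 reads in replicate 3 of Nanog, and at most 3 and 4 in replicates 1 and 3 of Esrrb. Nanog had 28, 20 and 16 listed cytosines, of which 2.46%, 2.94% and 0% of the reads were unconverted. The 0 of 98 reads in replicate 3 allows up to 3.06%, so the libraries cannot be told apart at this depth. Esrrb, an orphan nuclear receptor, had 19 and 5 listed cytosines of NM_011934.4 in replicates 1 and 3, with 0 of 57 and 0 of 17 reads unconverted, which allows up to 5.26% and 17.6%. Its model NM_001159500.1 was listed only in replicate 2, where 9 cytosines with 27 reads in all had 3.70% unconverted. Tbx3, a T-box factor, was listed only in replicate 1, with 18 cytosines between positions 128 and 173 of NM_198052.2. None of the 70 reads in this sum was unconverted, which allows up to 4.29% if they are independent, but no cytosine had more than 4 reads.

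Over all their reads, the 5 testable mRNAs were converted about as completely as other mRNAs. The 8 genes pooled had 1.54%, 1.48% and 1.40% unconverted, a mean of 1.47% ± 0.0687 against 1.46% ± 0.0643 in all other genes. The difference of 0.00963 ± 0.0133 percentage points was smaller than its spread and positive in 2 of 3 libraries (two-sided exact sign-flip test, p = 0.5).

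Pou5f1 and Sox2 stood above the other genes in each library, and Tfcp2l1 and Zfp42 below. Pou5f1 had 1.57%, 1.53% and 1.42% unconverted, which was 0.0425 ± 0.0328 percentage points above the other genes of the same library. Sox2 had 1.55%, 1.48% and 1.45%, or 0.0312 ± 0.0148 above. Tfcp2l1 had 1.501%, 1.43% and 1.38%, a difference of -0.0272 ± 0.00375, and Zfp42 1.48%, 1.42% and 1.36%, a difference of -0.0426 ± 0.00603. Each of these 4 exact sign-flip tests gave p = 0.25, the smallest that 3 libraries allow (0.313 after Benjamini-Hochberg adjustment over the 5 genes), so none could pass 0.05. All 4 differences were smaller in size than the spread of the background between libraries. They were taken within each library, however, so that spread does not enter them and does not measure their error. Sall4 had 1.68%, 1.60% and 1.16%, above the other genes in 2 libraries and below in replicate 3 (exact sign-flip test, p = 1). Its mean difference of 0.0133 ± 0.228 percentage points turned to -0.0527 without replicate 1 and to -0.0522 without replicate 2. Among the 4746 genes with at least 100 testable cytosines, the testable shares ranked at percentile 66.2 for Pou5f1, 62.6 for Sox2, 54.8 for Sall4, 44.9 for Tfcp2l1 and 40.03 for Zfp42.

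**Figure D2:**
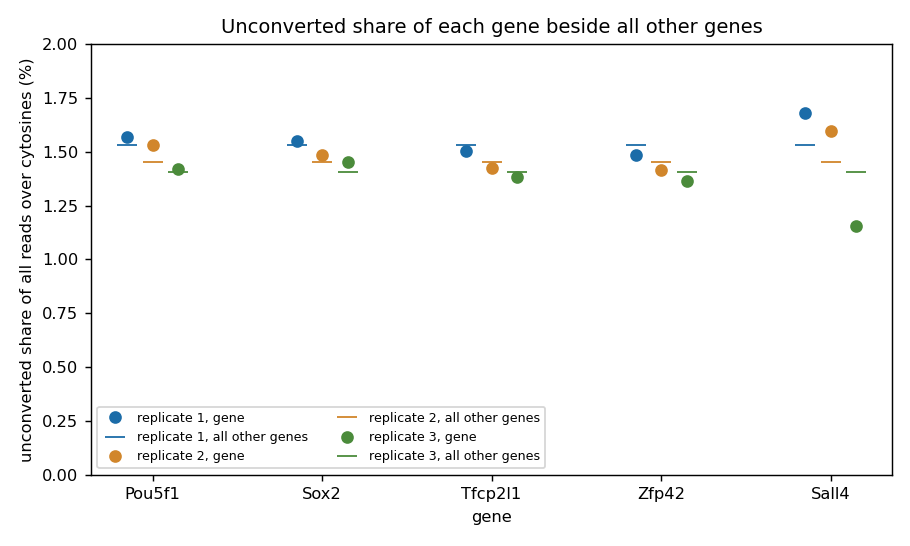
Unconverted share of all reads over cytosines (percent) for the 5 testable genes, with points for each gene and short lines for all other genes of the same replicate. Pou5f1 and Sox2 lie above the lines and Tfcp2l1 and Zfp42 below in all 3 replicates, by less than 0.05 percentage points on average, and Sall4 lies below its line in replicate 3.

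Single cytosines were then tested against the background of their library. The test was a one-sided exact binomial test in each library, whose 3 p-values were merged by Fisher's combination. Adjustment by Benjamini-Hochberg ran over the 1639820 testable cytosines of the whole series. It treats every read as independent, and no spread between samples enters it. In the 8 genes, 22 of the 2517 testable cytosines, or 0.874%, had an adjusted p below 0.05, against 0.499% over all genes. Calls of this kind depend on depth. Among cytosines with a mean coverage of at least 100 reads, 16 of 667 in the 8 genes were called, or 2.40%, against 2.41% over all genes, a comparison chosen after seeing the data. The count of 22 fell to 12 without replicate 2 and to 11 without replicate 3, to 7 with a beta-binomial test and to 1 when the highest of the 3 p-values was tested.

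To count as a candidate methylated site, a called cytosine had to average 10% or more unconverted reads and to exceed the background of every library. One of the 2517 cytosines met this rule, or 0.0397%, against 0.0473% over all genes (775 cytosines). Most of the others had enough reads to limit their share. For 2262 of the 2517, or 89.9%, the upper bound of the exact 95% interval of the pooled reads was below 10%. The median upper bound was 2.73% in Pou5f1, 3.23% in Sox2, 4.63% in Zfp42, 5.50% in Tfcp2l1 and 6.84% in Sall4. No unconverted read was seen in any library at 503 cytosines, or 20.0%, against 28.6% over all genes. A count of 0 is less likely at a deeper cytosine, so these percentages do not compare conversion. In Sox2, with a median of 146 reads, 43 of 535 had none, and in Sall4, with 27.3 reads, 93 of 316.

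The 22 called cytosines were weakly unconverted. Their mean shares ran from 2.32% to 13.9% with a median of 4.88%, close to the 4.62% of all called cytosines of the series, and 12 of them lay below 5%. Sox2 held 9 of 535 testable cytosines, Pou5f1 7 of 154, Tfcp2l1 5 of 1224 and Sall4 1 of 316, against 0.499% over all genes. At a mean coverage of at least 100 reads, 6 of 114 or 5.26% were called in Pou5f1, 8 of 307 or 2.61% in Sox2 and 2 of 140 or 1.43% in Tfcp2l1. Zfp42 had 0 of 80 and Sall4 0 of 26 at that depth, against 2.41% over all genes. This cut does not even out the depth above it. The calls of Pou5f1 at 880 to 1477 reads had shares of only 2.32% to 2.64%. Without replicate 2, Pou5f1 held 2 and Tfcp2l1 3, without replicate 3, Sox2 held 5, Pou5f1 3 and Tfcp2l1 2, and without replicate 1, Tfcp2l1 held 2. In Zfp42, none of 288 was called by the combined binomial test, nor by the Poisson or beta-binomial test. An unadjusted p below 0.05 in the combined binomial test was seen at 15 of the 288, beside 114 of 2517 in the 8 genes. A cut at 0.05 lets some cytosines pass without any signal. Its testable cytosine with the highest share, at position 736, was unconverted in 2 of 15, 2 of 18 and 0 of 12 reads, with an adjusted p of 1.

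**Figure D3:**
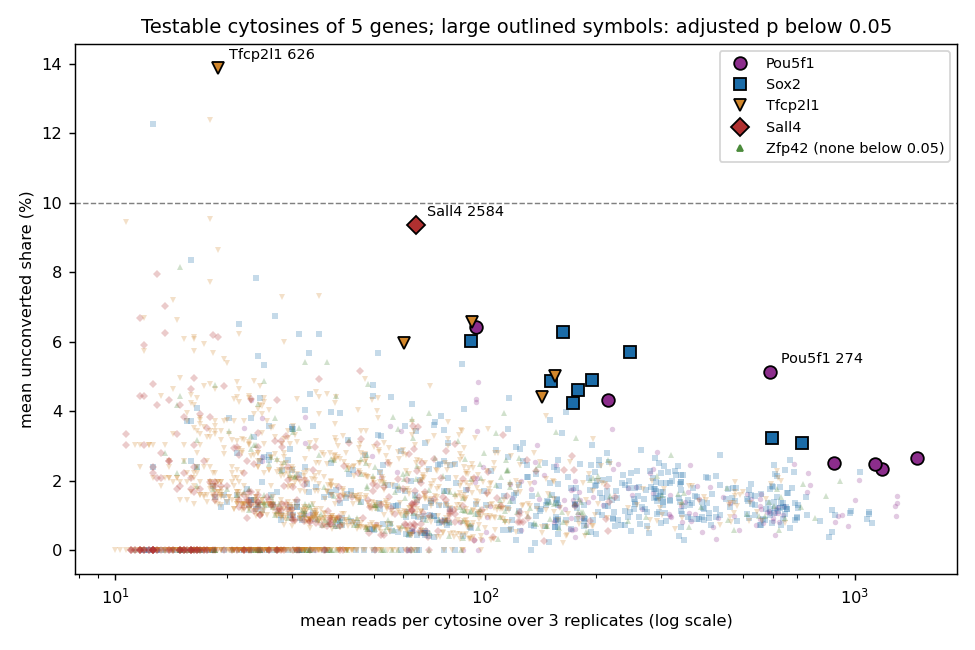
Mean unconverted share (percent) of the 2517 testable cytosines against their mean coverage over 3 replicates (log scale), with a colour and symbol for each gene, large outlined symbols for an adjusted p below 0.05 and a dashed line at 10%. Of the 22 outlined cytosines, 1 in Tfcp2l1 lies above 10%, and the shares of the called cytosines decrease with depth to 2.32% to 2.64% at the deepest positions of Pou5f1. The share needed for a call falls with depth, so this decrease does not compare deep with shallow cytosines.

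The site with the firmest support was position 274 of Pou5f1. It was unconverted in 31 of 609, 28 of 572 and 32 of 594 reads, or 5.09%, 4.90% and 5.39%, a mean of 5.12% ± 0.248. The 3 libraries lay close together (exact Fisher test of their reads, p = 0.936), and the pooled share of 5.13% had an exact 95% interval of 4.15% to 6.26%. The adjusted p of the combined exact binomial test was 6.91e-19. The only other listed cytosine within 10 nucleotides, at 278, stood at 1.82% ± 0.636. It had 428, 379 and 410 reads, so part of the reads at 274 were not seen there. Coverage rose again to 555, 458 and 522 reads at position 285. The part of this local drop in the share at 274 was not tested. The median coverage of cytosines 50 to 100 nucleotides before the site was 192 reads and of those after it 1080.5. Of the 12 called cytosines with the highest shares, it was the one whose call held under all alternatives that were run, with an adjusted p between 4.3e-19 and 0.000286 over 9.

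Position 108 of Pou5f1 differed in kind. It was unconverted in 8 of 116, 9 of 93 and 2 of 75 reads, a mean of 6.41% ± 3.53 (adjusted p = 0.000153, combined exact binomial test, and 0.241 without replicate 2). It lies in a run of 5 cytosines from 105 to 109, whose mean shares of 4.83%, 3.43%, 4.35%, 6.41% and 4.26% were all above the background. The other 5 called cytosines of Pou5f1 lay between positions 57 and 355 and had shares from 2.32% to 4.33% at 216 to 1477 reads. All 7 calls of Pou5f1 thus fell in the stretch from 57 to 355, which also holds its deepest cytosines.

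The 1 candidate site of the 8 genes was position 626 of Tfcp2l1. It was unconverted in 3 of 20, 1 of 18 and 4 of 19 reads, or 15.0%, 5.56% and 21.1%, a mean of 13.9% ± 7.81 (adjusted p = 0.00496, combined exact binomial test). The pooled 8 of 57 reads gave 14.0%, with an exact 95% interval from 6.26% to 25.8%. No difference between the libraries was detectable at this depth (exact Fisher test, p = 0.454), and 2 of the 3 passed the binomial test alone at 0.05. The adjusted p was 0.0899 without replicate 1 and 0.620 without replicate 3, so the call rests on both of these libraries.

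The neighbourhood of this site was shallow and itself raised. Position 626 is the first of a run of 5 cytosines from 626 to 630, and the last of the run, at 630, had a mean share of 8.64%. The 6 other cytosines within 10 nucleotides had 4.22% ± 0.823 together. Coverage fell from 76, 46 and 69 reads at position 570 to about 19 at the site and rose again to 90, 73 and 70 at position 678. The part of this dip in the high share was not tested.

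**Figure D4:**
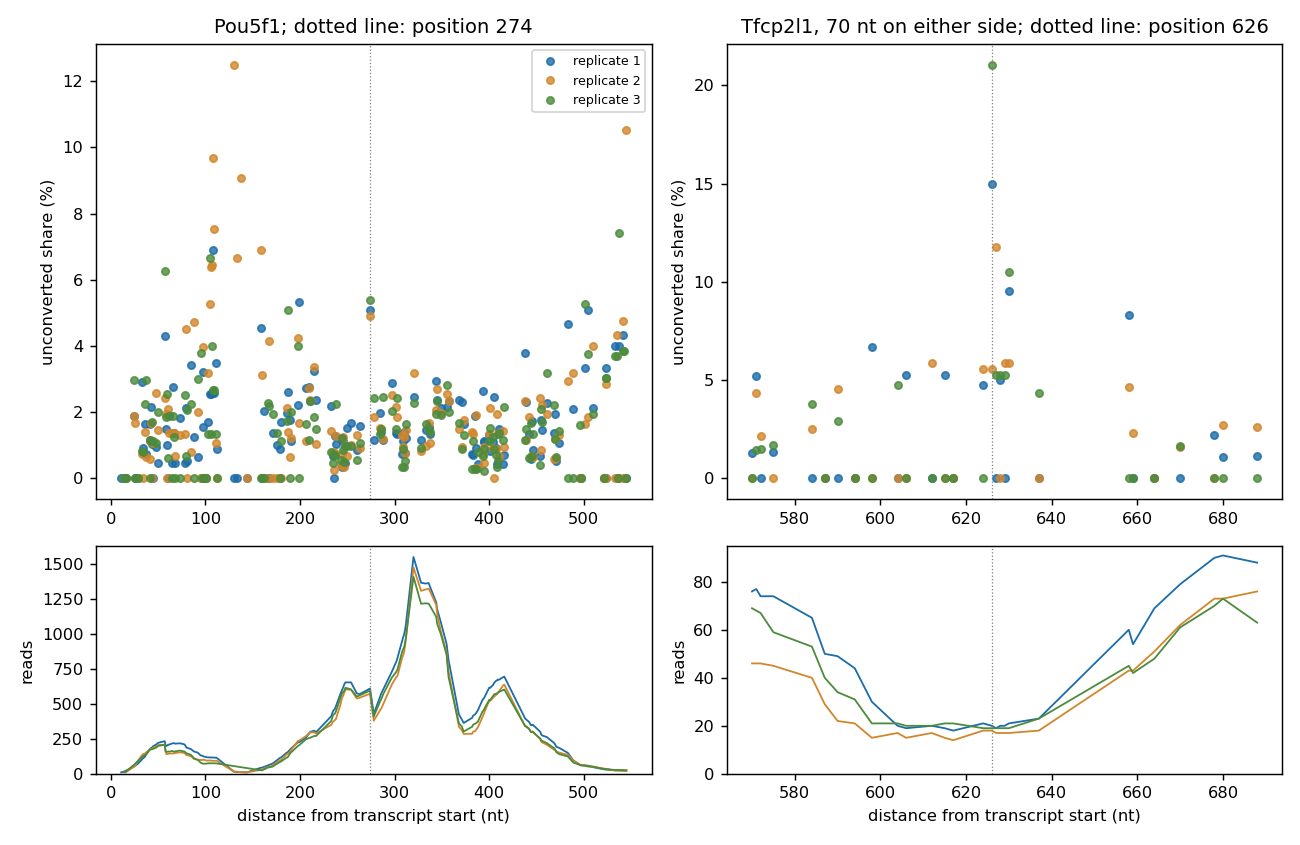
Unconverted share of each cytosine (percent, upper panels) and reads per cytosine (lower panels) against the distance from the transcript's start in nucleotides, for Pou5f1 and for 70 nucleotides on either side of position 626 of Tfcp2l1, with 1 colour per replicate, cytosines of at least 10 reads in that replicate only, and dotted lines at positions 274 and 626. At Pou5f1 274 the 3 replicates lie together at 4.90% to 5.39% on about 592 reads, while at Tfcp2l1 626 they spread from 5.56% to 21.1% on about 19 reads.

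Sall4 held the second-highest called share. Position 2584 was unconverted in 8 of 93, 6 of 58 and 4 of 44 reads, or 8.60%, 10.3% and 9.09%, a mean of 9.35% ± 0.899 (adjusted p = 1.42e-05, combined exact binomial test). The libraries agreed within sampling noise (exact Fisher test, p = 0.948). Its neighbours within 10 nucleotides, among them the adjacent position 2583, had 1.14% ± 0.460. The mean lies just below the level of 10% that defines a candidate, and the exact 95% interval of the pooled share ran from 5.56% to 14.2%.

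Tfcp2l1 had a further tight site at position 1785. It was unconverted in 7 of 113, 6 of 86 and 5 of 77 reads, a mean of 6.55% ± 0.395 (adjusted p = 0.00112, combined exact binomial test), against 0.379% ± 0.656 at the 2 other cytosines within 10 nucleotides. The covered stretch around 1785 was short, with a median coverage of 6.33 reads 50 to 100 nucleotides before it and 3.5 after it. Coverage fell to 77, 44 and 52 reads at position 1788. The part of this setting in the share at 1785 was not tested. Positions 4499 and 6669 were more scattered, with means of 5.02% ± 2.41 and 5.95% ± 4.76. At 6669, 7 of 63, 3 of 60 and 1 of 58 reads were unconverted. Their calls had adjusted p = 0.00165 and 0.0369 in the combined exact binomial test. That of 4499 was 0.826 without replicate 3, and that of 6669 was 1 without replicate 1 and 0.0943 without replicate 2. The remaining call, at 8084, had 4.41%.

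The 9 called cytosines of Sox2 lay between positions 192 and 987. The first 500 nucleotides held 5 of them and 28.6% of the testable cytosines, and the first 1000 held all 9 and 56.4%. The call of the lowest adjusted p was position 597, unconverted in 13 of 265, 15 of 252 and 14 of 225 reads, a mean of 5.69% ± 0.695 (adjusted p = 5.40e-09, combined exact binomial test), against 2.03% ± 0.194 at its neighbours. Position 349, in a run of 5 cytosines from 346 to 350, had the highest called share of Sox2 at 6.28% ± 2.40. It was unconverted in 18 of 201, 7 of 162 and 7 of 126 reads (adjusted p = 3.79e-08, combined exact binomial test, and 0.0716 without replicate 1).

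Positions 192 and 503 of Sox2 had means of 4.88% ± 0.483 and 4.89% ± 1.21, with adjusted p = 0.00433 and 0.000247 in the combined exact binomial test. Without replicate 3 these became 0.156 and 0.124, and without replicate 2 the first became 0.0576. Position 366 was uneven, with 11 of 109, 2 of 99 and 4 of 67 reads unconverted. Its adjusted p of 0.000609 in the same exact test became 1 without replicate 1. Its libraries differed by the exact Fisher test at p = 0.0469, which became 0.605 after adjustment over the 14 sites compared. The other 4 called cytosines lay between 307 and 987 and had 3.07% to 4.59%. The testable cytosine of Sox2 with the highest mean, at 1638, was not called. It was unconverted in 1 of 10, 3 of 17 and 1 of 11 reads, a mean of 12.2% ± 4.70 (adjusted p = 0.258, combined exact binomial test).

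Of the 500-nucleotide stretches of Sox2 with a mean coverage of 100 reads or more, the first had the highest share. Its first 30 nucleotides had 0.842% (exact interval 0.230% to 2.14%). This interval includes the 1.86% of the whole stretch, so a contrast between them was not resolved. The first 500 nucleotides had 1.94%, 1.81% and 1.85% unconverted and the next 500 had 1.504%, 1.43% and 1.45%, a difference of 0.401 ± 0.0285 percentage points with the same sign in 3 of 3 libraries. The exact sign-flip test gave p = 0.25, the smallest it can give. Without the 5 called cytosines of the first 500 nucleotides, their share was 1.71% ± 0.0543. The called cytosines of the next 500 were not left out of the value they are compared with. Over all genes the same difference was 0.0368 ± 0.00687, in Zfp42 0.0383 ± 0.0621 and in Tfcp2l1 -0.196 ± 0.0762. Mean coverage in Sox2 was 105 ± 13.9 reads in the first 500 nucleotides and 406 ± 30.4 in the next. Sox2 cytosines below the median coverage of the transcript had 1.69% ± 0.0701 and those at or above it 1.46% ± 0.0467, and the part of coverage in the difference was not tested.

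Further along Sox2 the share was 1.36% ± 0.0722 from 1001 to 1500 and 1.87% ± 0.320 from 1501 to 2000, where coverage was 30.9 ± 3.70 reads. In Pou5f1 the stretches from 101 to 200 and from 501 to 600 had 2.29% ± 0.382 and 2.53% ± 0.532, against 1.26% to 1.53% in the 4 other stretches. Both are the shallowest of Pou5f1, at 83.3 ± 12.9 and 33.3 ± 0.956 reads. Tfcp2l1 varied from 1.23% ± 0.0609 to 1.99% ± 0.136 over its 10 stretches of 1000 nucleotides, the highest being the short last one. Zfp42 had 1.37% ± 0.0292, 1.33% ± 0.0903 and 1.56% ± 0.165 in its first 3 stretches of 500 nucleotides. The 4 stretches of Sall4 ran from 1.25% to 1.59%, with SDs from 0.253 to 0.544.

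**Figure D5:**
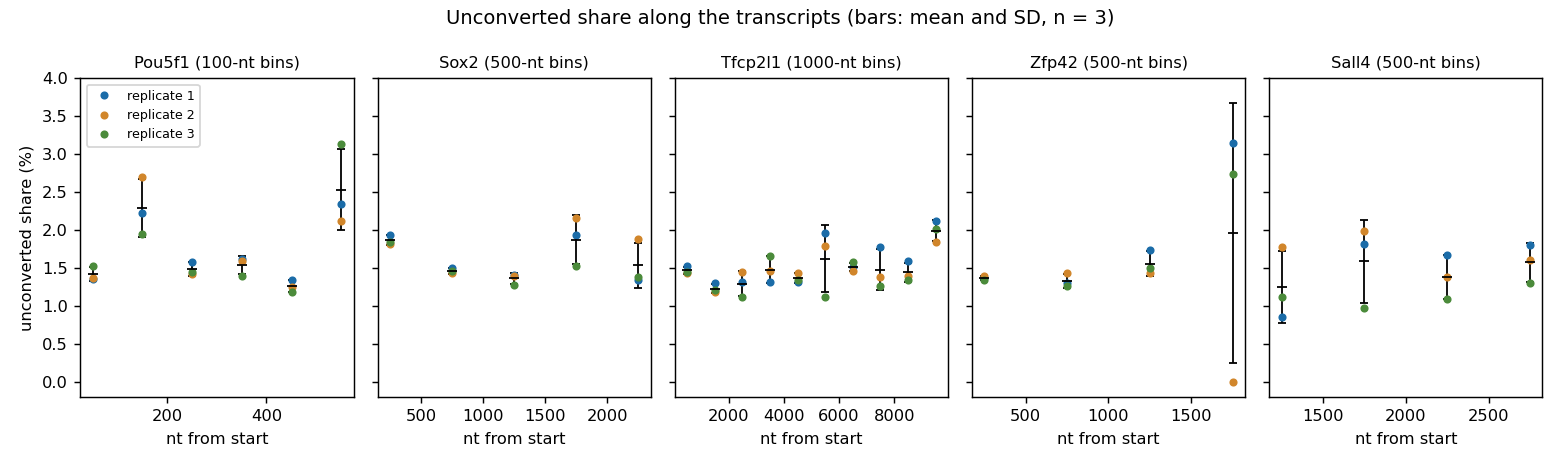
Unconverted share (percent) in consecutive stretches of the 5 testable transcripts, with points for replicates and bars for mean and SD (n = 3), against the distance from the transcript's start in nucleotides. Sox2 is higher in its first 500 nucleotides (1.86%) than in the next 500 (1.46%) in every replicate, and the wide bars at the end of Zfp42 come from a stretch with 5 testable cytosines.

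Cytosines beside another cytosine had a slightly lower pooled share than isolated ones in each library, over the 8 genes as over all genes. In the 8 genes, adjacent cytosines had 1.41% ± 0.0932 and isolated ones 1.54% ± 0.0433, against 1.41% ± 0.0659 and 1.499% ± 0.0625 over all genes. The gap was widest in Pou5f1, at 1.35% ± 0.0830 against 1.82% ± 0.0817, and remained without position 274, at 1.70% ± 0.0940 for the isolated ones. In Zfp42 the values were 1.23% ± 0.114 and 1.55% ± 0.0338, in Sox2 1.48% ± 0.0624 and 1.503% ± 0.0536, in Tfcp2l1 1.397% ± 0.136 and 1.47% ± 0.0349, and in Sall4 1.43% ± 0.302 and 1.53% ± 0.180. The order was the same in 3 of 3 libraries in Pou5f1 and Zfp42 only. Adjacent cytosines were the higher in replicates 1 and 3 of Sox2, replicate 1 of Tfcp2l1 and replicate 2 of Sall4.

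Genes that act around the core network were examined by lists. Of 30 genes of the wider pluripotency network, 29 were listed (Myc was not) and 25 had testable cytosines. Of their 9292 testable cytosines, 201 or 2.16% were called by the same binomial test, against 0.499% over all genes, and 100 of these were in Trim28, a chromatin corepressor. Among the cytosines of the list with at least 100 reads, 173 of 3526 or 4.91% were called, and without Trim28 76 of 2677 or 2.84%, against 2.41% over all genes. The restriction to deep cytosines and the removal of Trim28 were chosen after seeing the data. Candidates numbered 7 of the 9292 in 5 genes, beside 775 of 1639820 or 0.0473% over all genes. The highest share was that of Lin28a, an RNA-binding protein that blocks let-7 maturation, with 25.7% ± 3.86 at position 3306. Lefty1, an inhibitor of Nodal, had 2, the higher with 16.7% ± 2.39 at 1064, and Tdgf1, a Nodal co-receptor, had 14.1% ± 3.95 at 554. Trim28 held 1 more, and with Dppa5a it was the most covered gene of the list (0.519% ± 0.00531 and 0.208% ± 0.00547 of all coverage).

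Of 23 genes of early differentiation and other lineages, 18 were listed, and Eomes, Fgf5, Foxa2, Otx2 and Sox17 were not. Only 8 had testable cytosines. They took 0.0351% ± 0.000631 of all coverage, with Nes, a neural intermediate filament, at 0.0205% ± 0.00116 and the neural factor Sox1 at 0.00412% ± 0.000506. Of 1002 testable cytosines, 4 or 0.399% were called (1 of 91 at 100 reads or more) and 1 was a candidate, in Zscan4d, a gene active in rare stem cells that resemble the earliest embryo, with 13.4% ± 3.76 at position 272. Without replicate 2 that list had 0 candidates. In the feeder fibroblast list, 4 of 2201 testable cytosines or 0.182% were called (1 of 95 at 100 reads or more) and 1 was a candidate, with 20.7% ± 1.72 at position 1165 of Col1a1. Without replicate 2 or without replicate 3 that list had 2. Over all genes, 0.499% of testable cytosines were called (2.41% at 100 reads or more) and 0.0473% were candidates. Col1a1 and Col1a2, which encode the chains of type I collagen, were the most covered genes of the feeder list, at 0.0131% ± 0.00339 and 0.0122% ± 0.00307 of all coverage. The unconverted shares of the 3 lists were 1.49% ± 0.0645, 1.60% ± 0.0472 and 1.48% ± 0.100 in the order given, beside 1.47% ± 0.0687 for the 8 core factors.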

How the data were processed

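Poly(A) RNA of 3 samples of 1 group was measured by bisulfite sequencing. The submitters' processing notes name BSMAP and build mm9; their versions, the annotation and the handling of multiply mapped reads are not stated. For each cytosine of an mRNA, the authors deposited its position, a raw count of the reads covering it, and the fraction of these reads that stayed unconverted. No listed cytosine had under 3 reads. Coverage times fraction was whole within 1e-06 at 100% of cytosines and was taken as the unconverted reads.

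Accessions without version were matched to RefSeq symbols (14932 of 15021) of GRCm38.p6, used for names and for the start sequences, which were placed by the pattern of listed cytosines. Between libraries, 5.38% to 5.88% of cytosines had equal coverage, so none was a duplicate. The tests were an exact binomial test per library (background: the unconverted share of the library), Fisher's combination and Benjamini-Hochberg adjustment over all testable cytosines. They were run in Python 3.11.15 with numpy 2.4.6, pandas 2.3.3 and scipy 1.17.1, and tested on simulated data. Named were the 8 genes, their candidates, the 12 called cytosines with the highest share, the highest testable cytosine of each, and, per wider list, up to 4 genes with a candidate and the 2 most covered. A gene that this rule selects is not reported here. Names outside this rule were chosen after seeing their values. The members and lists were chosen with earlier results of these data known. The planned split by coding and untranslated regions was not run, for want of protein sequences.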

Additional observations from a re-analysis of the deposited data

How the results depend on the processing

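The count of candidate sites in the 8 genes, 1 as reported, became 0 at a coverage minimum of 20 reads, 0 at a level minimum of 20%, 10 at a level minimum of 5% and 0 with the highest of the 3 p-values, and was 0 to 1 when each replicate was left out. The count of called cytosines, 22, became 7 with a beta-binomial test, whose dispersion was fitted on all testable cytosines, 1 with the highest p-value, and 11 to 15 without each replicate. Over all genes the 775 candidates became 490 at 20 reads, 87 at the 20% level, 3322 at the 5% level and 109 with the highest p-value. Those of the wider network became 1 at the 20% level, those of the differentiation list 0 at 20 reads or at 20%, and the feeder list had 1 to 2 without each replicate. Position 626 of Tfcp2l1 had an adjusted p of 1 with the highest p-value and of 0.00424 to 0.620 without each replicate, and could not be tested at 20 reads. The cause of these changes was not tested.

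Of 107 alternatives for the 12 named called cytosines, 28 ended the call. A beta-binomial test ended those of Sox2 192, 366 and 503 and of Tfcp2l1 4499 and 6669, a coverage minimum of 5 reads that of Tfcp2l1 6669 (adjusted p = 0.0531, exact binomial test), and the highest p-value all but Pou5f1 274. As the mean of single cytosines, the shares of Pou5f1 and Sox2 were 1.59% and 1.66%. Sall4 had 180 testable cytosines at 20 reads, and Nanog 11 at 5 reads and 9 without replicate 3. The difference of Sall4 from other genes, 0.0133 percentage points as reported, became -0.0391 as the mean of single cytosines, -0.0208 without its highest cytosine and -0.0527 to 0.145 without each replicate. The mean differences of Pou5f1, Sox2, Tfcp2l1, Zfp42 and the 8 genes together kept their sign under these and with testable cytosines alone. As the mean of single cytosines, however, Tfcp2l1 and Zfp42 each stood above the other genes in 1 of 3 libraries. The other settings, a Poisson test, 5 reads and the background of the same transcript, left the counts within 1.5 times. The alternatives for shares by transcript region were not run. No paired analysis was possible because there is 1 group.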
